A study of Mus musculus with 4 samples.

Results

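Bax, Bbc3, Pmaip1, Fas, Tnfrsf10b, Aen, Perp, Apaf1 and Ei24 are 9 genes of cell death that the transcription factor p53 is known to switch on, and they are described here in irradiated and sham mouse microglia. They were chosen by name from 27998 genes in the count matrices, and no expression value entered the choice rule. Earlier results of these data were known at the time, so the choice was not blind to them. All 9 were found in the matrices. The values are raw UMIs, molecular tags that count each captured transcript once, summed over the cells of a library and scaled to a library total of 1000000 (CPM).

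The study profiled brain microglia of C57BL/6 mice by 10x Genomics Chromium single-cell RNA sequencing. Irradiated mice received a single dose of 8 Gy to the whole brain at postnatal day 21, and sham controls received no dose. There were 4 libraries, each pooled from 4 mice: the 6 h sham, the 6 h irradiated, the 1 week sham and the 1 week irradiated library. Lists of 4 values below keep this order. The labels give no genetic change and no sex, and they name the source as brain, whereas the design text speaks of hippocampal microglia. The design text asks if responding genes share the same cells or mark different groups of them. With 1 library per group there was no replicate check and no test. Every interval below is a 95% interval for counting error only, and the spread between mice or libraries is unknown.

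The libraries held 1623 to 2670 barcodes, 8486 in all, against 8095 cells stated in the design text. After filters on depth, genes and mitochondrial UMIs and removal of called doublets, 8324 cells remained, with 5585259 to 9713033 UMIs per library and medians of 3430 to 3585 UMIs per cell. Pairs of libraries shared 4 to 12 barcodes, and no matrices were identical. All 9 microglia markers, among them P2ry12, Tmem119 and Csf1r, were present in each library, and their sum was 39851 CPM in irradiated at 6 h against 47726.5 to 49918 CPM in the others. Of the other cell types, astrocyte markers summed to 262 CPM in irradiated at 6 h and to 145 to 181 CPM elsewhere, with at most 1 of 8 at 0. Oligodendrocyte precursor markers summed to 11.2 CPM there and to at most 0.783 CPM elsewhere, and all 8 were at 0 in sham at 1 week. Monocyte markers summed to 92.9 CPM there and 66.2 CPM in sham at 6 h, with Ly6c2 at 0 in every library. A cluster with neural, vascular and macrophage markers together, called mixed here, held 3.54% of the irradiated cells at 6 h and 0.320 to 0.605% of the other libraries.

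p53 is stabilised after DNA breaks and activates both cell cycle arrest and cell death genes. On the mitochondrial route, Bbc3 (PUMA) and Pmaip1 (NOXA) bind and block the protective members of the Bcl2 family, and Bax then permeabilises the outer mitochondrial membrane. Released cytochrome c joins Apaf1 in the apoptosome, which activates caspase 9. On the receptor route, Fas and Tnfrsf10b (DR5) recruit Fadd and caspase 8 at the cell surface. Microglia are the resident macrophages of the brain and renew themselves by division.

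Promoter sequence is shown for Bax, Aen, Ei24 and Bbc3, which lie among the genes that were higher after irradiation, to show where the p53 motif occurs or does not occur close to their starts. RefSeq promoter windows of the build GRCm38.p6 run from 250 bases before to 50 bases after a start, and 9 windows of 6 of the genes were at hand (Bax, Bbc3, Fas, Aen, Apaf1 and Ei24). They were searched for the 10-base unit of the p53 motif, which is 3 purines, C, 2 bases that are A or T, G and 3 pyrimidines, and which reads the same on both strands. The unit occurred in 8.36% of 32851 mouse windows of 300 bases. It occurred in the windows of Bax (201 bases before the start), Ei24 (10 bases before the start) and Aen. The Aen unit lay 121 bases before the start in 1 window and 10 bases after an earlier start in an overlapping window. No unit was present in the 3 windows of Bbc3, nor in those of Fas and Apaf1. A looser search for 2 such units, up to 13 bases apart with up to 3 mismatches in all and the C and G kept, gave another picture. It matched in 15.6% of all windows, and it matched in Bax, both windows of Aen and 2 of the 3 windows of Bbc3, the printed one included, but not in Ei24, Fas or Apaf1. A match is a run of letters, not a measured binding site, and a window without a match says only that these letters are absent from it. Below are the 250 bases before the start, 5′ to 3′ on the gene's strand, with the unit in capitals.
Bax (chr7:45466899-45467148, minus strand): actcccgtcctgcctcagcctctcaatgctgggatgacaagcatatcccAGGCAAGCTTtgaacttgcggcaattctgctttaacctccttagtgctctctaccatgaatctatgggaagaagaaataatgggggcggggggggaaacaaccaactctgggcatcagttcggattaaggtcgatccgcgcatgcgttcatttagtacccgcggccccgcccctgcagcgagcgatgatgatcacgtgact
Aen (chr7:78895808-78896057, plus strand): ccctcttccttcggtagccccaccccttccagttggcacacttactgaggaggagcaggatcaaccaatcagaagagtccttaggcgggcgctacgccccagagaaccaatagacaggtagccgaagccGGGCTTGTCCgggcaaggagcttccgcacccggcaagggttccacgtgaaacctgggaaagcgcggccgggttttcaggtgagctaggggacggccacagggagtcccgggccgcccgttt
Ei24 (chr9:36797335-36797584, minus strand): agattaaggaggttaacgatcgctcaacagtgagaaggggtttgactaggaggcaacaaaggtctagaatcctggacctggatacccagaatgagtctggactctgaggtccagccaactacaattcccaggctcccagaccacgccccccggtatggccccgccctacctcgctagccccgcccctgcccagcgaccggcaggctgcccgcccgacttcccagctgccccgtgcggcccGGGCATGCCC
Bbc3 (chr7:16309333-16309582, plus strand): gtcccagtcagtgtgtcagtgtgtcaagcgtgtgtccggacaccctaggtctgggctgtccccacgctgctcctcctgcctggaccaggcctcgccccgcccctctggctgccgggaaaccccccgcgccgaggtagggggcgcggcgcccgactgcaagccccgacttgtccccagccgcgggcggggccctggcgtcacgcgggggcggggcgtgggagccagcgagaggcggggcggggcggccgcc

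At 6 h each of the 9 genes was higher in the irradiated library than in its sham. A gene counted as measured in a comparison from 50 UMIs over both libraries and as called from a 1.5-fold difference. By this rule 8 of 8 measured genes were higher, next to 9.01% of all 9933 measured genes that were at least 1.5-fold higher and 9.31% that were lower. The median log2 fold of the 8 genes was 2.67, against -0.063 over all measured genes, whose 95th and 99th percentiles were 0.90 and 2.35. Tnfrsf10b stayed under the minimum, and with its bound included the median was 2.97. The shift of the median of well counted genes (from 200 UMIs) was -0.06, so centring on it would move each fold by that much. With only the clusters called microglia-like, 8 of 8 measured genes were again at least 1.5-fold higher at 6 h.

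**Figure D1:**
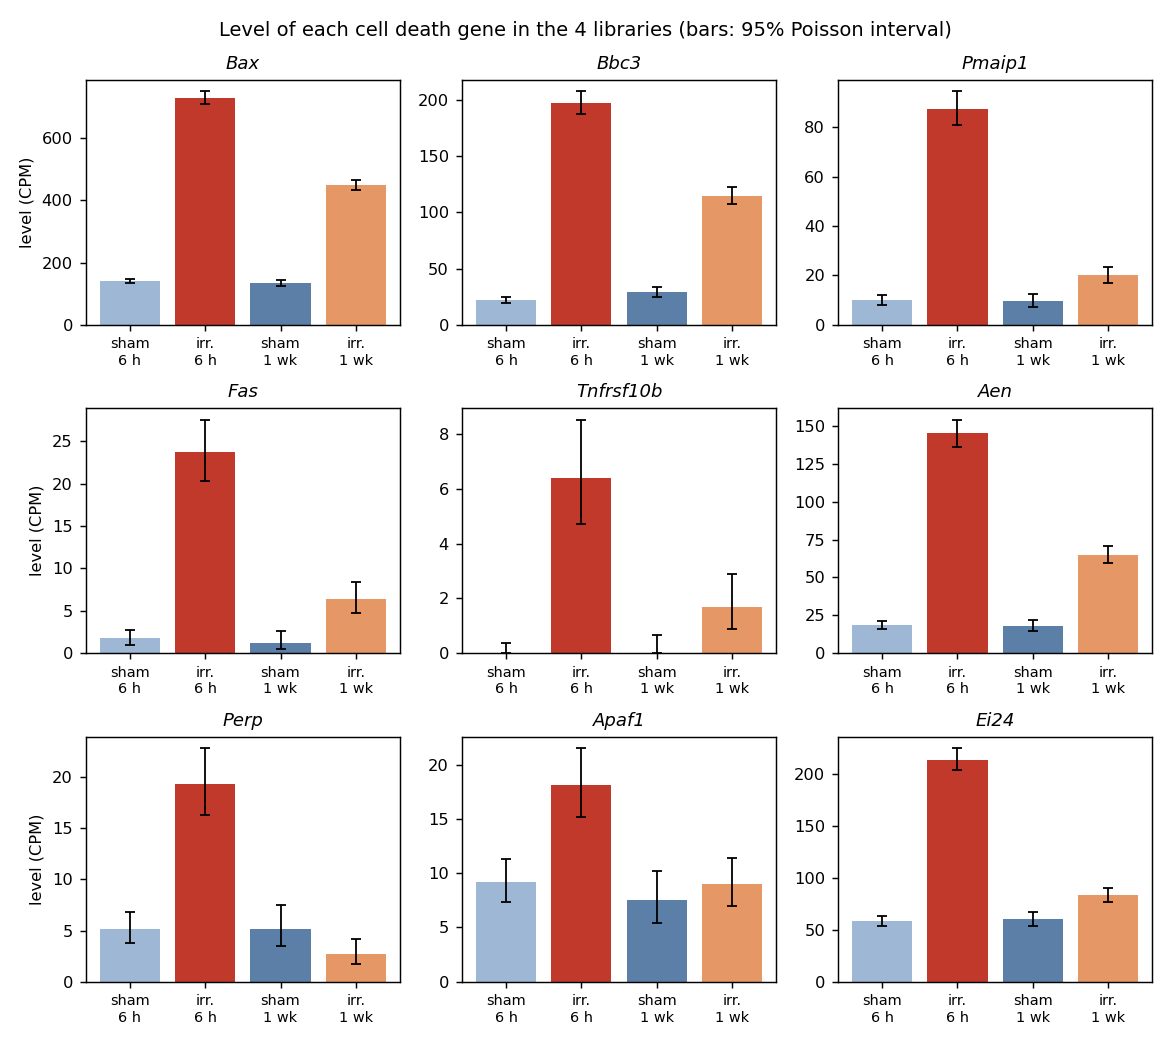
Level of each gene (CPM) in the 4 libraries, with bars for the exact 95% Poisson interval of the summed UMIs. Each panel has its own axis from 0. The irradiated library at 6 h is highest in all 9 panels, and the irradiated library at 1 week lies between it and the shams in all panels except Perp, where it is lowest, and Apaf1, where it is at the level of the sham at 6 h.

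Bax, the pore former of the outer mitochondrial membrane (ENSMUSG00000003873, mm10 chromosome 7, 45461697 to 45466898), had 1365 UMIs in the 6 h sham, 5357 in the 6 h irradiated, 754 in the 1 week sham and 3445 in the 1 week irradiated library. These are levels of 140.5, 730.5, 135.0 and 449.6 CPM. Both irradiated libraries stood well above both shams, and the shams lay within each other's counting error. The log2 fold over sham was 2.38 (2.29 to 2.46) at 6 h and 1.74 (1.62 to 1.85) at 1 week. Among all measured genes Bax ranked 98 of 9933 from the highest fold at 6 h and 59 of 9502 at 1 week.

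Bbc3, which encodes PUMA (ENSMUSG00000002083, chromosome 7, 16308393 to 16318205), had 213, 1447, 162 and 879 UMIs, or 21.9, 197, 29.0 and 115 CPM. Its log2 fold was 3.17 (2.96 to 3.38) at 6 h and 1.98 (1.74 to 2.23) at 1 week. Bbc3 was the only one of 7 genes measured between the shams that differed there beyond counting error, and the 1 week sham was higher by 0.40 (0.10 to 0.71) on the log2 scale. Measured against the sham of the other time, its log2 fold was 2.77 at 6 h and 2.39 at 1 week.

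Pmaip1, which encodes NOXA (ENSMUSG00000024521, chromosome 18, 66458533 to 66465565), had 96, 642, 54 and 154 UMIs, or 9.88, 87.6, 9.67 and 20.1 CPM. At 6 h its log2 fold of 3.15 (2.84 to 3.47) was close to that of Bbc3, with overlapping intervals. At 1 week the fold of Pmaip1 was 1.06 (0.60 to 1.53) and lay below that of Bbc3, with intervals apart. Both genes encode BH3-only proteins, the sensor branch of the Bcl2 family.

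The death receptor genes had few UMIs. Fas, the receptor of Fas ligand (ENSMUSG00000024778, chromosome 19, 34290666 to 34327772), had 17, 174, 7 and 49 UMIs, or 1.75, 23.7, 1.25 and 6.40 CPM. Its log2 fold was 3.76 (3.04 to 4.57) at 6 h, the highest of the 8 measured genes, and 2.35 (1.20 to 3.74) at 1 week. At both times the minimum of UMIs was passed through the irradiated library, so a high fold followed in part from the filter. Within the clusters called microglia-like the log2 fold at 1 week was 3.45, since 5 of the 7 sham UMIs lay in cluster 4, which is not among them. Fas was then under the minimum of 50 UMIs and no longer counted.

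Tnfrsf10b, which encodes the DR5 receptor of the ligand TRAIL (ENSMUSG00000022074, chromosome 14, 69767472 to 69784411), had 0, 47, 0 and 13 UMIs. Its level was 6.41 CPM in irradiated at 6 h and 1.70 CPM in irradiated at 1 week. It was found in the irradiated libraries only, among these 4 libraries and at this depth. With 3 UMIs in place of 0 in the sham library it was at least 20.8-fold higher at 6 h and at least 3.16-fold higher at 1 week. The exact intervals reach lower, to 16.2-fold and 2.22-fold.

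Aen, an exonuclease of the nucleus and nucleolus that acts in apoptosis (ENSMUSG00000030609, chromosome 7, 78895854 to 78911209), had 180, 1063, 102 and 498 UMIs, or 18.5, 145, 18.3 and 65.0 CPM. Its log2 folds of 2.97 (2.74 to 3.20) at 6 h and 1.83 (1.52 to 2.15) at 1 week were close to those of Bbc3. Apaf1, the scaffold of the apoptosome (ENSMUSG00000019979, chromosome 10, 90989311 to 91082770), had 89, 133, 42 and 69 UMIs, or 9.16, 18.1, 7.52 and 9.01 CPM. It had the smallest fold of the measured genes at 6 h, with a log2 fold of 0.99 (0.59 to 1.39). At 1 week its log2 fold of 0.26 (-0.31 to 0.85) did not differ from 0 beyond counting error. Its value at 1 week hung on the cells and the sham used. It was 0.87, past 1.5-fold, within the clusters called microglia-like and -0.025 against the sham of the other time.

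Ei24, an endoplasmic reticulum membrane protein gene first known as a p53-induced gene (ENSMUSG00000062762, chromosome 9, 36779159 to 36797393), had 567, 1571, 336 and 639 UMIs, or 58.4, 214, 60.2 and 83.4 CPM. Its log2 fold was 1.88 (1.74 to 2.02) at 6 h and 0.47 (0.28 to 0.67) at 1 week, above 0 but under the 1.5-fold call. An antisense gene that overlaps Ei24, Gm26787, had 4, 0, 0 and 1 UMIs. Perp, a membrane protein gene of cell junctions and p53-driven death (ENSMUSG00000019851, chromosome 10, 18845020 to 18857073), had 50, 142, 29 and 21 UMIs, or 5.15, 19.4, 5.19 and 2.74 CPM. At 6 h its log2 fold was 1.91 (1.44 to 2.41), next to that of Ei24. At 1 week it was -0.92 (-1.81 to -0.06), from exactly the minimum of 50 UMIs, and Perp was the only gene of the set below sham there.

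At 1 week 5 of the 8 measured genes were at least 1.5-fold higher (Bax, Bbc3, Pmaip1, Fas and Aen), 1 was lower (Perp) and 2 lay between (Apaf1 and Ei24). Over all 9502 measured genes 3.91% were higher and 3.09% lower. The median log2 fold of the 8 genes was 1.40, against 0.036 over all measured genes, whose 99th percentile was 1.28. With Tnfrsf10b included its own bound was the median, 1.66 from 3 UMIs in place of 0 and 1.15 from the exact interval, which is under that percentile. Between the shams, 0 of 7 measured genes passed 1.5-fold in either direction, next to 2.94% of 9723 genes that were higher and 4.92% that were lower at 1 week. That comparison has 1 library a side and differs in age as well. Apart from Bbc3, the sham folds of the measured genes ran from -0.29 for Apaf1 to 0.04 for Ei24, and every one of their intervals included 0.

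**Figure D2:**
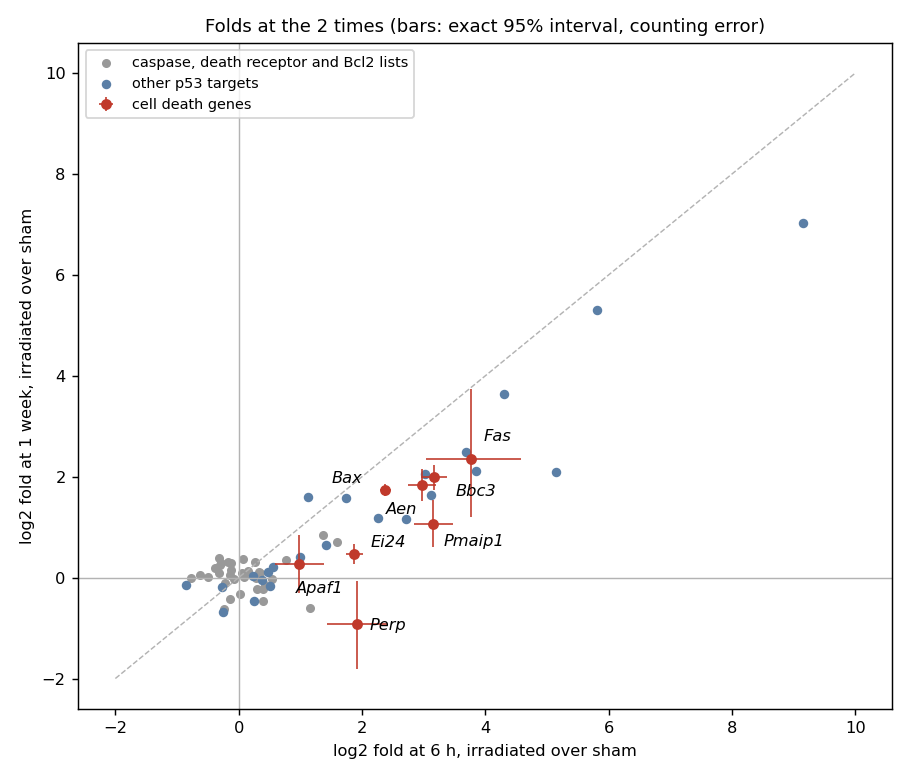
The log2 fold of irradiated over sham at 6 h (horizontal) and at 1 week (vertical) for the 8 measured genes of the set in red with exact 95% intervals, other p53 targets in blue and the caspase, death receptor and Bcl2 lists in grey; the dashed line marks equal folds. All 8 red points lie right of 0 and under the dashed line, and Perp lies below 0 at 1 week at -0.92.

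From 6 h to 1 week the genes parted. All 9 were at least 1.5-fold lower in the irradiated library at 1 week than in that at 6 h, next to 10.6% of 9753 measured genes that were lower and 9.28% that were higher. These log2 folds ran from -0.70 (-0.76 to -0.64) for Bax and -0.78 (-0.91 to -0.66) for Bbc3, through -1.01 for Apaf1, -1.16 for Aen and -1.36 for Ei24, to -1.89 for Fas, -1.92 for Tnfrsf10b, -2.12 for Pmaip1 and -2.82 (-3.56 to -2.15) for Perp. Bax and Bbc3 thus stayed closest to their level at 6 h. Fas and Perp passed the minimum of UMIs through the library at 6 h (174 and 142 UMIs, against 49 and 21 at 1 week). Tnfrsf10b passed it mostly so (47 against 13 UMIs). For these genes a low fold between the times followed in part from the filter. The difference of the folds over sham, 1 week less 6 h, was -0.64 (-0.78 to -0.50) for Bax, -1.19 (-1.505 to -0.87) for Bbc3, -2.09 (-2.64 to -1.55) for Pmaip1 and -2.83 (-3.77 to -1.90) for Perp. The value of Bbc3 depends on its shams. With both shams summed as the baseline its log2 folds were 3.01 and 2.23, which differ by the -0.78 given above, close to Bax.

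The part of the 6 h excess that was left at 1 week was computed as the CPM above the own sham at 1 week in percent of that at 6 h. It was 53.3% (49.8 to 56.9%) for Bax and 48.9% (43.0 to 54.7%) for Bbc3, which did not differ beyond their intervals. Aen kept 37.0% (31.0 to 42.9%), with an interval just below that of Bbc3. The receptor genes Tnfrsf10b and Fas kept 26.5% (10.2 to 42.7%) and 23.4% (13.4 to 33.3%). Ei24 kept 14.9% (8.95 to 20.9%) and Pmaip1 13.4% (8.02 to 18.8%), so among the BH3-only genes Bbc3 kept more than Pmaip1, with intervals apart. Apaf1 gave 16.6% with an interval from -18.8 to 51.9%, too wide to place it in the order. Perp gave -17.2% (-33.4 to -1.04%), a level below sham. For comparison, the cell cycle inhibitor gene Cdkn1a kept 74.5% (72.9 to 76.0%), the Akt repressor gene Phlda3 33.1% (30.5 to 35.6%) and the kinase gene Plk2 13.8% (8.49 to 19.1%). Members of the cell death set thus covered much of the range between these p53 targets, and none of the 9 reached the share of Cdkn1a.

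**Figure D3:**
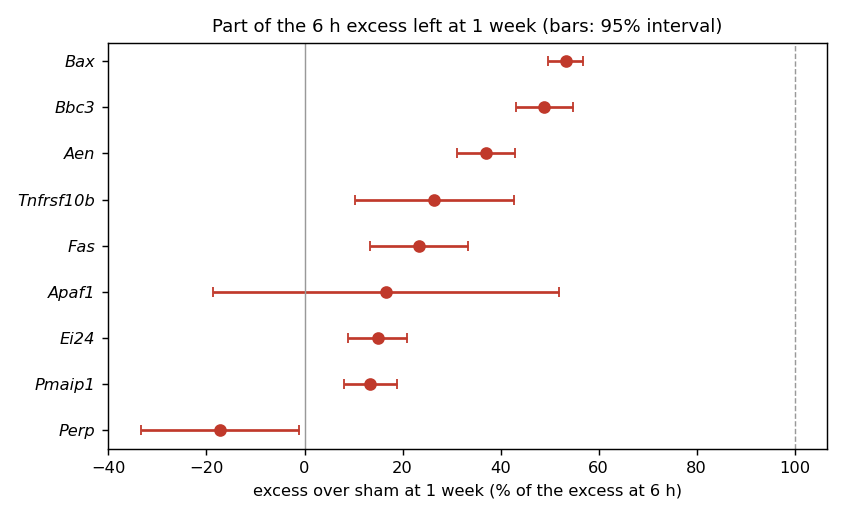
Excess over sham at 1 week in percent of the excess at 6 h (horizontal) for each of the 9 genes, with 95% intervals from Poisson error; the solid line marks no excess and the dashed line an excess equal to that at 6 h. Bax and Bbc3 lie at 53.3% and 48.9%, Pmaip1 and Ei24 at 13.4% and 14.9%, and Perp below 0.

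Detection per cell was compared after thinning each cell to 2000 UMIs, which left out 93, 90, 189 and 109 shallower cells of the 4 libraries in turn. Bax had a UMI in 24.1%, 76.0%, 23.5% and 56.8% of the cells. Most irradiated cells therefore carried a Bax transcript at this depth, against fewer than 1 in 4 sham cells. Without thinning the shares were 38.6%, 90.3%, 36.9% and 74.7%. Over cells of equal depth the Bax UMIs had a variance to mean ratio of 0.998, 1.06, 0.990 and 1.12, where independent counts give about 1. It was highest in irradiated at 1 week, where the Bax share also differed with Cdkn1a, as given below. The ratio of Cdkn1a was 2.87, 3.48, 3.72 and 4.68. Mean UMIs per cell were 0.275, 1.46, 0.267 and 0.907 for Bax and 0.0873, 5.95, 0.122 and 4.49 for Cdkn1a. The ratios of these genes are therefore not directly comparable.

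Bbc3 had a UMI in 4.11%, 31.9%, 4.80% and 20.9% of thinned cells, and 7.41%, 47.9%, 9.47% and 31.5% without thinning. Aen had 3.56%, 26.8%, 4.003% and 12.7% thinned, and 6.58%, 40.5%, 6.33% and 20.4% unthinned. Pmaip1 had 1.92%, 14.3%, 1.53% and 4.04% thinned, and 3.51%, 25.0%, 3.20% and 6.46% unthinned. For these 3 genes both irradiated libraries were above their shams with intervals apart. Ei24 had 11.05%, 34.3%, 11.8% and 16.2% thinned, and 19.4%, 52.5%, 19.4% and 25.7% unthinned. Its share at 1 week was above sham as well (14.6 to 17.9% against 10.1 to 13.6%), although its fold was under 1.5.

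Shares of the rarer genes were small. Fas had a UMI in 0.274%, 4.03%, 0.218% and 1.48% of thinned cells, and 0.605%, 8.09%, 0.448% and 2.25% unthinned. Perp had 0.823%, 3.97%, 1.02% and 0.444% thinned, and 1.81%, 6.62%, 1.66% and 0.936% unthinned. Apaf1 had 1.65%, 3.71%, 1.02% and 1.63% thinned, and 3.29%, 6.32%, 2.56% and 3.18% unthinned. The thinned intervals of Perp and Apaf1 overlapped between sham and irradiated at 1 week. Tnfrsf10b had a UMI in 22 of 1888 thinned cells of irradiated at 6 h (1.17%) and 9 of 2028 of irradiated at 1 week (0.444%). In sham it had 0 of 2553 and 0 of 1374 cells. Counted as 3 cells of the total, this allows a share of up to 0.118% and 0.218%, and the exact intervals end at 0.144% and 0.268%. Unthinned, its shares were 2.28% and 0.562% in the irradiated libraries and 0 of 2646 and 0 of 1563 cells in the shams. Those allow up to 0.113% and 0.192% by the same count, with exact upper ends of 0.139% and 0.236%.

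Free RNA can give a UMI to a cell that does not express a gene, and no cell type here is known to lack these 9 genes. It was gauged with the microglia genes P2ry12 and Tmem119 in the irradiated library at 6 h. P2ry12 had a UMI in 1 of 8 monocyte-like cells, a share of 12.5% (0.316 to 52.7%) at a median of 3103.5 UMIs per cell. Its share was 96.8% of 1899 microglia-like cells, with a median of 3555 UMIs. Bax had a UMI in 5 of those 8 cells and in 90.6% of the microglia-like cells, Bbc3 in 3 of 8 and 49.1%, and Ei24 in 4 of 8 and 53.03%. With 8 cells this gauge is coarse, and the part of free RNA in the smaller shares was not tested.

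A cell thinned to 2000 UMIs held on average 0.474, 1.962, 0.479 and 1.15 of the 9 genes in the 4 libraries. None of the 9 was detected in 60.2% (58.3 to 62.1%) of sham cells and 6.57% (5.49 to 7.78%) of irradiated cells at 6 h. At 1 week this share was 58.8% (56.2 to 61.4%) and 26.1% (24.2 to 28.1%). At least 3 genes were detected together in 0.548%, 28.9%, 0.437% and 7.69% of cells. The irradiated cells at 6 h were thus the only library of the 4 where most cells (64.1%, 61.9 to 66.3%) held 2 or more of the genes, and 1 cell of it held 8.

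**Figure D4:**
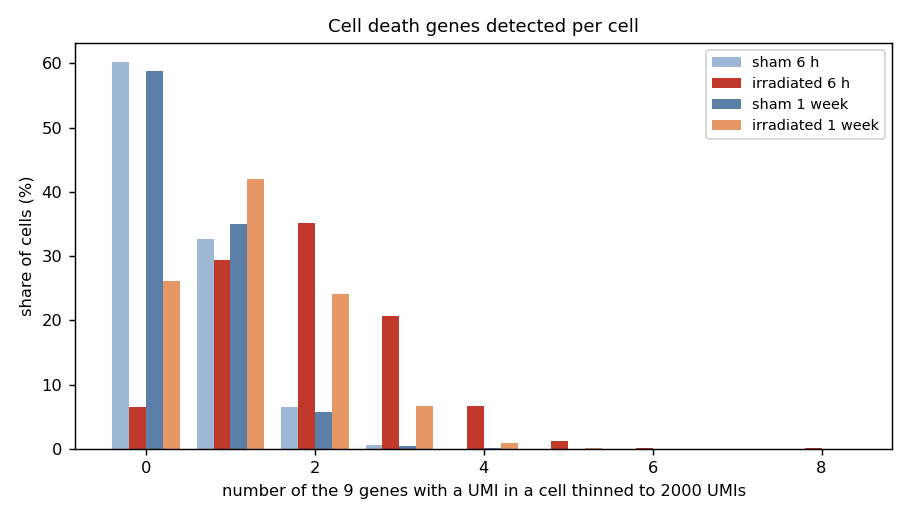
Share of cells (%) by how many of the 9 genes had a UMI, in cells thinned to 2000 UMIs, for the 4 libraries. The sham libraries peak at 0 genes (60.2% and 58.8%), irradiated at 1 week at 1 gene (42.0%) and irradiated at 6 h at 2 genes (35.2%).

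In both irradiated libraries the genes were detected together in the same cells slightly more often than their separate shares give. At 6 h most of these values lay within counting error. The share of cells with none of the 9 at 6 h, 6.57%, had an interval that included the 5.90% given by unrelated genes. At 1 week it was 26.1% (24.2 to 28.1%), above the 23.1% of unrelated genes. At least 5 genes were detected in 1.43% (0.944 to 2.07%) of irradiated cells at 6 h, an interval that just included the 0.946% of unrelated genes. The standard deviation of the number of genes per cell was 1.09 in irradiated at 6 h, against 1.03 if the genes were unrelated, and 0.921 against 0.857 in irradiated at 1 week. In the shams it was 0.643 against 0.633 at 6 h and 0.629 against 0.637 at 1 week. In irradiated at 6 h, 21 pairs of genes had at least 20 expected cells with both, and the observed number over the product of the shares ran from 0.882 to 1.503 with a median of 1.06. The product lay inside the exact interval for 20 of the 21 pairs, and the exception was Bbc3 with Perp, seen together in 36 cells against 24.0 expected. In irradiated at 1 week 7 pairs ran from 1.09 to 1.31 with a median of 1.16, so each was above 1, and the product lay inside the interval for 6 of them. The exception there was Bbc3 with Aen, in 70 cells against 53.6 expected. These intervals ignore that the product comes from the same cells. A product inside its interval therefore does not show that a pair was unrelated. Bax alone was in 76.0% of irradiated cells at 6 h, which bounds the ratios of its pairs there, so the ratios of the times are not directly comparable. Cells of a library share their pool of mice and are not replicates.

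Cdkn1a, the p53 target of cell cycle arrest, gave a further view within the irradiated libraries, with cells thinned to 2000 UMIs split by their Cdkn1a UMIs. In irradiated at 6 h 80 cells had 0, 533 had 1 to 3 and 1275 had 4 or more. Bax was detected in 76.2%, 75.4% and 76.2% of these, so its share differed by less than counting error whether or not Cdkn1a was seen. Bbc3 was detected in 18.8% (10.9 to 29.0%), 25.0% (21.3 to 28.9%) and 35.7% (33.1 to 38.4%), and Pmaip1 in 6.25%, 10.7% and 16.3%. In irradiated at 1 week the ranges held 312, 731 and 985 cells. There Bax was detected in 37.5% (32.1 to 43.1%), 54.6% (50.9 to 58.2%) and 64.5% (61.4 to 67.5%), Bbc3 in 9.94%, 19.97% and 24.97%, and Aen in 7.05%, 10.4% and 16.1%. The share of Ei24 moved less, at 14.7%, 15.9% and 17.0%, with overlapping intervals. At 1 week cells without a Cdkn1a UMI were thus also poorer in Bax, but their Bax share lay above that of sham cells at 1 week (21.3 to 25.8%).

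The cells were clustered on variable genes that did not include the 9, and levels were compared between clusters with at least 40 cells of a library. Bax was spread evenly in irradiated at 6 h, at 738 CPM in cluster 3 (1068 cells), 702 in cluster 5 (580 cells), 757 in cluster 6 (170 cells) and 632 in cluster 7 (41 cells). The mixed cluster 8 (70 cells) stood above these at 1003 CPM (851 to 1175). Bbc3 was uneven in the same cells, at 256 CPM (240.3 to 273) in cluster 3, 113 CPM (99.8 to 127) in cluster 5, 153 in cluster 6 and 456 CPM (361 to 567) in cluster 7. Cluster 5, led by Gdf15 and Spp1, also had the highest Bax of both shams, 247 CPM (214 to 284) at 6 h and 234 CPM (190.3 to 285) at 1 week, against 105 to 152 CPM in the other sham clusters.

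Cluster 7, led by the immediate early genes Ier2, Fos, Egr2 and Atf3, had the highest Bbc3 and Pmaip1 of its library in all 4 libraries. Bbc3 was at 43.2, 456, 84.5 and 178 CPM and Pmaip1 at 34.0, 194, 29.4 and 64.0 CPM there. The cluster had 144, 41, 129 and 165 cells of the 4 libraries. Its intervals were apart from those of every other cluster for both genes in irradiated at 6 h, and for Bbc3 in sham at 1 week. Elsewhere they overlapped that of some other cluster. In sham at 1 week, Pmaip1 was at 29.4 CPM (16.8 to 47.8) against 21.3 CPM (9.73 to 40.4) in cluster 5. Cluster 7 held 28.4% of the Bbc3 UMIs and 29.6% of the Pmaip1 UMIs of the sham at 1 week, from 8.25% of the cells of that library. Immediate early genes can be raised when cells are taken from tissue, and the part of this in the levels was not tested. Without cluster 7, an alternative added after these levels had been seen, the log2 fold of Bbc3 was 3.23 at 6 h and 2.23 at 1 week, and that of Pmaip1 3.38 and 1.05. The genes that passed 1.5-fold upwards were then 8 of 8 measured at 6 h and 4 of 6 at 1 week, with Fas and Perp under the UMI minimum.

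In irradiated at 1 week Bax was at 503 CPM (482 to 525) in cluster 1, which held 1198 of the cells, and at 297 CPM (253 to 347) in cluster 0 (153 cells), a cluster that mostly held sham cells. Cluster 9, led by the division genes Top2a and Mki67, had 304 CPM of Bax (246 to 371) and 35.2 CPM of Bbc3 from 53 cells. Bbc3 was at 127 CPM in cluster 1. The dividing cells were therefore among those with a lower CPM of Bax and Bbc3, still above the sham library at 1 week for Bax (135.0 CPM). They were also deeper, with a median of 5711 UMIs per cell against 3373.5 in cluster 1. Bax had 95 UMIs in the 53 cells of cluster 9 and 2108 in the 1198 cells of cluster 1, so it was not lower per cell. Bbc3 had 11 and 530 UMIs and was lower per cell as well. Perp was below 10 CPM in each of these clusters, from 13, 1 and 0 UMIs in clusters 1, 0 and 9, with upper interval ends of 5.31, 10.2 and 11.8 CPM. In irradiated at 6 h it had 45.6 CPM (19.7 to 89.8) in cluster 7, 24.8 in cluster 3 and 15.2 in cluster 5. It had 2.69 CPM (0.326 to 9.71) in cluster 6, which is led by the interferon genes Rsad2 and Ifit3. The values of clusters 6 and 7 rest on 2 and 8 UMIs.

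**Figure D5:**
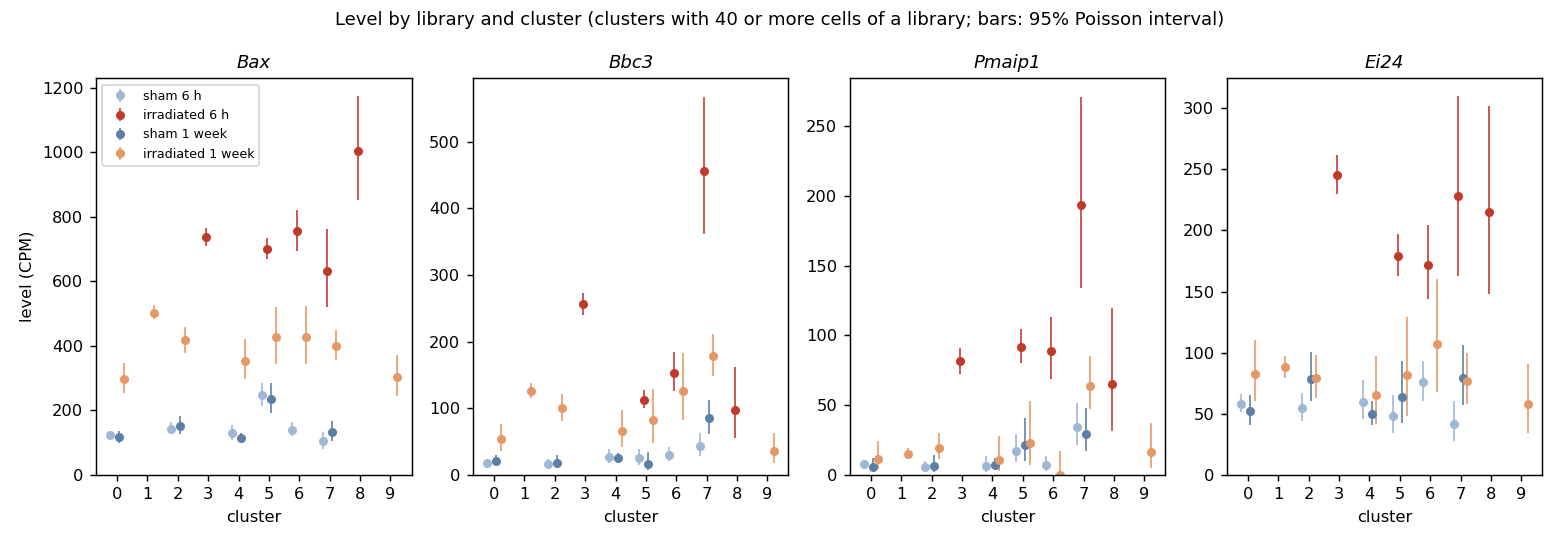
Level (CPM, exact 95% Poisson interval) of Bax, Bbc3, Pmaip1 and Ei24 by cluster and library, for clusters with at least 40 cells of the library. Bbc3 and Pmaip1 are highest in cluster 7 of each library, in part with intervals that overlap those of other clusters. Bax in irradiated at 6 h lies between 632 and 757 CPM in clusters 3, 5, 6 and 7.

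The other genes of these pathways were described from 4 lists. Other p53 targets were mostly higher, 17 of 26 measured at 6 h against 1 lower (median log2 fold 1.28) and 13 of 23 at 1 week against 1 lower (1.15). The list had 30 genes, and 4 at 6 h and 7 at 1 week were under the UMI minimum. Cdkn1a was at 5.81 and 5.30, Phlda3 at 9.14 and 7.02 and Plk2, a polo-like kinase gene, at 5.15 and 2.08 at 6 h and 1 week. Phlda3 had only 6 and 5 sham UMIs, with intervals of 8.02 to 10.6 and 5.79 to 8.65, and Plk2 had 13 and 11. Both passed the minimum of UMIs through the irradiated library, so a high fold followed in part from the filter. The partners of the death receptors were not past 1.5-fold in either direction, 0 of 7 measured at both times, with medians of -0.13 and 0.15. Over all measured genes 9.01% were higher and 9.31% lower at 6 h, and 3.91% and 3.09% at 1 week, so lists of this size hold few such genes in any case. Of these, Bid, which links the receptors to the mitochondria, was at -0.50 (-0.69 to -0.32) and 0.01, Casp8 at -0.38 (-0.48 to -0.27) and 0.19, and the adaptor gene Tradd at -0.17 and 0.32.

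Genes of the apoptosome and the caspases gave counts near those shares, with 0 of 16 higher and 1 lower at each time and medians of 0.08 and 0.07. Casp2, the caspase of the PIDDosome, was the lower gene at 6 h at -0.78 (-1.22 to -0.35), from 150 and 66 UMIs, and was at -0.01 at 1 week. Cycs, which encodes cytochrome c, was at 0.34 and 0.08. In the Bcl2 family outside the set, 4 of 12 measured genes were higher and 1 lower at 6 h (median 0.39), and 2 were higher and 1 lower at 1 week (0.03). The protective genes Bcl2l1 (1.59 and 0.70) and Bcl2 (1.37 and 0.83) were past 1.5-fold at both times. Of their 6 h excess, Bcl2l1 kept 28.6% (21.6 to 35.6%) and Bcl2 59.7% (34.0 to 85.4%). Bcl2a1d was at 1.15 and -0.60, but it has near-identical paralogs among which reads can be split, so its value is uncertain. Bid is in both the receptor and the Bcl2 list.

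By the pair of folds at 6 h and 1 week, the genes nearest to each member were found among 9431 genes measured at both times, by Euclidean distance. Nearest to Bax were Ak1 (2.70 and 1.68) and Tacc2 (2.70 and 1.61), and to Bbc3 the p53 target Sesn2 (3.02 and 2.06) and Aen itself. Aen was nearest to Zak (2.90 and 1.963) and Glipr1 (3.06 and 1.65). Fas lay by Ccng1 (3.68 and 2.48) and Sulf2 (3.85 and 2.12), both of the p53 list, and Pmaip1 by S100a11 (3.06 and 1.08) and Ephx1 (2.87 and 0.93). Ei24 lay by Cdc34 (1.81 and 0.52) and Abhd4 (1.81 and 0.40), and Apaf1 by Gss (1.03 and 0.25) and Cacna1a (1.03 and 0.28). The neighbours of Perp, high at 6 h and low at 1 week, were Fblim1 (2.04 and -0.81) and Csf1 (1.73 and -0.86). The likeness rests on 2 folds from 4 libraries.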

How the data were processed

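The authors deposited count matrices (raw UMIs of each gene in each barcode). The submitters' processing notes name Cell Ranger 2.0 and mm10. How barcodes were called, and the annotation, is not given in the sources used here. Coordinates came from GENCODE vM21 (GRCm38), where 27645 of 27998 identifiers matched. The genes, lists and rules were chosen with earlier results of these data known.

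Cells were kept from 1000 UMIs and 500 genes at up to 10% mitochondrial UMIs, which removed 117 barcodes. Scrublet in scanpy 1.11.5 (expected rate 0.06) marked 45, or 0.538%, far under that rate, so doublets can remain. UMIs of kept cells were summed per library. Log2 folds carry the exact conditional binomial interval, shares the Clopper-Pearson interval and CPM the Poisson interval. The interval of the excess left uses the delta method. Only the interval of the log2 folds was tested on simulated data, with Poisson counts and no spread between libraries. The other intervals were not tested in this way. With a single library per group no test was made.

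Cells were clustered together without integration (2000 variable genes, 30 components, 15 neighbours, leidenalg 0.10.2, resolution 1) into 11 clusters. The naming rule was set after the clusters were seen. Clusters with 3 or more raised neural or vascular markers were called mixed. A microglia-like cluster had to reach 50 CPM for 8 of the 9 microglia markers, and other immune classes 3 markers raised 1.5-fold. Cluster 4, whose leading genes hold astrocyte markers, was left unnamed (268, 1, 579 and 106 cells). The largest number of microglia-like cells lay in cluster 0 in both shams, cluster 3 in irradiated at 6 h and cluster 1 in irradiated at 1 week. The minimum of 40 cells per cluster was lowered from 50 after cluster 7 was seen. From each list the 3 genes with the largest absolute fold at 6 h were named, and for each member the 2 nearest genes. Some named genes are not reported here. Alternatives were other cell filters, only microglia-like clusters, median-centred folds, the mean CPM per cell, other shams, other minimums, 2-fold and other thinning.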

Additional observations from a re-analysis of the deposited data

Results flagged for a closer look

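Perp differed in direction between the times. Its log2 fold of irradiated over sham was 1.91 (1.44 to 2.41) at 6 h, from 50 and 142 UMIs, and -0.92 (-1.81 to -0.06) at 1 week, from 29 and 21 UMIs. Each time has 1 library a group, so the difference between the times was not tested. The value at 1 week rests on the minimum of 50 UMIs. It ran from -1.26 to -0.81 over the alternatives, and Perp came under that minimum with the stricter cell filter, without cluster 7 and in the microglia-like clusters alone.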

How the results depend on the processing

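No paired analysis was possible because each group has 1 library. The number of genes at least 1.5-fold higher was 6 to 9 at 6 h (8 as reported) and 4 to 5 at 1 week (5 as reported) over every alternative tried. At 6 h the 6 were all of 6 measured with a minimum of 200 UMIs, and the 9 were all of 9 with a minimum of 20. The gene added there was Tnfrsf10b, with 0 UMIs in sham and 47 in irradiated. It passed only through the irradiated library, so its call as higher followed from the filter. At 1 week 4 were higher of 5 measured with a minimum of 200 UMIs, and 4 of 6 without cluster 7. With 2-fold as the call the number was 7 and 5 of 8 measured. With only microglia-like clusters, 5 of 6 measured genes were higher at 1 week. Fas and Perp were then under the minimum of 50 UMIs, and Apaf1 was among the higher genes at 0.87. Of the 16 log2 folds, 13 stayed within their main interval under every alternative. The exceptions were Bbc3 with the sham of the other time (2.77 at 6 h and 2.39 at 1 week) and Apaf1 at 1 week. The percent of the excess left stayed within its interval for all 9 genes over the 3 alternatives tried. Shares of cells with a UMI follow depth, and 31 of 36 moved out of their interval without thinning and 23 of 36 at 1500 UMIs. Genes with few UMIs (Fas, Tnfrsf10b, Perp and Apaf1) are limited by depth at 1 week.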
